A study of Mus musculus with 12 samples.

Results

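Lrmda, Gdf3, Wdfy1 and Nnt are 4 genes of the 48795 listed in the count tables of this macrophage series. They were picked by name because their levels were known, from earlier results on these same libraries, to differ between Acod1-/- and WT cells whichever treatment the cells had received. The values that chose them are the genotype differences under vehicle, PM and OI+PM. Those differences are therefore given here as a description with no test. The effects of PM and of OI within a genotype did not enter the choice and were tested. All 4 genes were among the 11228 that passed the filter on low counts. Lrmda and Gdf3 were lower in Acod1-/- cells and Wdfy1 and Nnt were higher, under each treatment.

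The cells were bone marrow derived macrophages (BMDMs), grown from mouse bone marrow with the growth factor M-CSF. They carried either WT Acod1 or the knockout of Acod1, whose enzyme turns cis-aconitate into itaconate inside mitochondria. Cells of each genotype received vehicle, particulate matter (PM) at 20 μg/cm2 for 24 hours, or 4-octyl itaconate (OI), a cell-permeable form of itaconate, at 0.25 mM for 2 hours ahead of the same PM. Each of the 6 groups holds 2 libraries. The strain label of every WT library is C57BL/6, with no substrain given. The strain label of every Acod1-/- library is C57BL/6NJ-Acod1em1(IMPC)J/J, a line made on C57BL/6NJ. The study's methods name C57BL/6NJ as the source of the WT mice and describe male mice of a stated age, and the labels give neither sex nor age. Genotype and strain label thus change together in all 12 libraries, and a difference that comes with loss of Acod1 cannot be told apart from one that comes with the origin of the mice. Nothing says that the 2 libraries of a group came from separate mice, so the p-values measure the spread between libraries, which may be technical.

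The 4 genes act in different places. Nnt encodes the nicotinamide nucleotide transhydrogenase of the inner mitochondrial membrane, which uses the proton gradient to pass hydride from NADH to NADP+ and so supplies the NADPH that mitochondrial glutathione and thioredoxin systems spend on removing peroxide. It is also the best known gene that separates C57BL/6 substrains, because C57BL/6J mice carry a deletion of several of its exons and C57BL/6N mice do not. Wdfy1 encodes a protein with a FYVE domain and WD repeats that binds phosphatidylinositol 3-phosphate on early endosomes and has been described as an aid to the adaptor TRIF downstream of TLR3 and TLR4. Gdf3 encodes a secreted ligand of the TGF-beta family, known from early embryos and also from macrophages. Lrmda encodes a leucine-rich repeat protein of melanocyte differentiation, and its loss in people causes a form of albinism.

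The libraries held between 33616577 and 36817898 counts on genes. The level of a gene is given as its raw count and as normalized CPM, which relates the count to the library size after TMM scaling. The 8 macrophage markers were all detected, among them Csf1r at 996 CPM or more and Cd68 in every library. Of 3 melanocyte markers Tyr and Dct had no count in any library and Pmel stood between 0.308 and 0.706 CPM. Of 3 T cell markers Cd3e and Cd3g had no count, and Cd3d reached at most 0.0338 CPM. The summed level of 5 neutrophil genes ranged from 4.86 to 61 CPM in WT and from 4.97 to 33.6 CPM in Acod1-/- libraries, so it overlapped between genotypes. Most of this sum was S100a8, at 3.53 to 60.5 CPM, while Ly6g, Mpo and Elane reached at most 0.0301, 0.191 and 0.114 CPM. In bulk RNA a smaller number of cells that express a gene and less RNA per cell cannot be told apart. Acod1 itself was still counted in the knockout libraries, at 46 and 44 counts with vehicle against 69 and 98 in WT. With PM it reached 3660 and 3271 counts in Acod1-/- against 6346 and 5908 in WT, and with OI+PM 812 and 871 against 1087 and 1688. Its log2 difference, Acod1-/- minus WT, was -0.81, -0.80 and -0.81 under vehicle, PM and OI+PM (edgeR adjusted p of 0.492, 0.0807 and 0.0509). The direction follows the labels in each pair of groups, but none of the differences passed the threshold of 0.05, and counts of transcript do not show whether the enzyme was made.

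Lrmda had the largest of the 4 differences. The gene (ENSMUSG00000063458.12) lies on the plus strand of chromosome 14 at chr14:22019712-23056085 of GRCm38, spans 1036 kb and has 2714 bases of exon. Its middle is 80.5 Mb from that of Acod1, which is on the same chromosome. The WT libraries held 401 and 443 counts with vehicle, 681 and 770 with PM, and 654 and 935 with OI+PM. The Acod1-/- libraries held 29 and 29, 59 and 43, and 62 and 53 counts. In normalized CPM the WT means were 11 ± 0.396, 20.83 ± 1.94 and 25.61 ± 8.52, and the Acod1-/- means 0.799 ± 0.00879, 1.486 ± 0.352 and 1.748 ± 0.164 (SD, n = 2 each). The lowest WT library stood at 10.72 CPM and the highest Acod1-/- library at 1.864 CPM, so no treatment brought the genotypes near each other. The log2 difference, Acod1-/- minus WT, was -3.78 (SE 0.282) with vehicle, -3.81 (SE 0.251) with PM and -3.87 (SE 0.245) with OI+PM. These are levels 13.7, 14 and 14.6 times lower in Acod1-/- cells. Per kb of exon, Lrmda reached 4.051 normalized CPM in WT cells with vehicle, above 37.9% of the tested genes.

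Lrmda, the member with the largest difference, had an entry in the RefSeq promoter table, which is built on GRCm38.p6, and Gdf3, Wdfy1 and Nnt were not matched in it. The 250 bases that precede the start of Lrmda are therefore printed. They cover chr14:22019462-22019711 on the plus strand, 5′ to 3′, and the core of the antioxidant response element that NRF2 binds, TGACNNNGC, would be in capitals on either strand.

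Lrmda promoter: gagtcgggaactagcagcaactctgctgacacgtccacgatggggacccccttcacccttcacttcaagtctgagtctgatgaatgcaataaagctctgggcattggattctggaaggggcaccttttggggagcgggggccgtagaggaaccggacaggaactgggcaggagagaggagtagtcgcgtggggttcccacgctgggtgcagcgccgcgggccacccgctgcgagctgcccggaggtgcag

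This motif had 0 matches in the window, and 3338 of the 32851 windows of this length in the table hold it, or 10.2%. A window without these letters says nothing of whether NRF2 acts on the gene. The window has a GC content of 62.4% and 15 CpG sites, against a median of 52.4% and 6 over all windows. The sequence is that of the reference strain, C57BL/6J, and no sequence of the studied mice was read.

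Gdf3 was the other gene that was lower in Acod1-/- cells. It (ENSMUSG00000030117.5) is a short gene of 4.685 kb on the minus strand at chr6:122605403-122610087, with 2423 bases of exon. The WT libraries held 769 and 732 counts with vehicle, 613 and 676 with PM, and 170 and 184 with OI+PM. The Acod1-/- libraries held 179 and 180, 147 and 142, and 54 and 53 counts. The WT means were 19.59 ± 1.36, 18.5 ± 1.39 and 5.658 ± 0.802 CPM, and the Acod1-/- means 4.946 ± 0.0739, 4.203 ± 0.168 and 1.628 ± 0.00651 CPM (SD, n = 2 each). Within a treatment the genotypes did not overlap, but WT cells with OI+PM came down to 5.091 CPM, close to the 4.998 CPM of an Acod1-/- library with vehicle. The log2 difference between genotypes was -1.98 (SE 0.111), -2.14 (SE 0.115) and -1.79 (SE 0.144) in the same order of treatments, or 3.96, 4.4 and 3.46 times lower in Acod1-/- cells.

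Wdfy1 was higher in Acod1-/- cells. It (ENSMUSG00000073643.11) lies on the minus strand at chr1:79702262-79776143, spans 73.88 kb and has 6488 bases of exon. The WT libraries held 608 and 621 counts with vehicle, 593 and 447 with PM, and 483 and 364 with OI+PM. The Acod1-/- libraries held 2631 and 2580, 1897 and 2104, and 2139 and 2045 counts. The means were 16.03 ± 0.311, 14.91 ± 2.87 and 13.39 ± 1.52 CPM in WT cells and 71.78 ± 0.204, 58.14 ± 3.35 and 63.64 ± 0.927 CPM in Acod1-/- cells (SD, n = 2 each). The lowest Acod1-/- library stood at 55.77 CPM and the highest WT library at 16.94 CPM. The log2 difference was 2.16 (SE 0.12), 1.96 (SE 0.121) and 2.25 (SE 0.123), or 4.48, 3.9 and 4.75 times higher in Acod1-/- cells. Exons of Wdfy1 overlap those of Mrpl44 on the opposite strand, and whether the counting used strand is not given, so its counts are uncertain to that extent. Mrpl44, which encodes a mitochondrial ribosomal protein, had log2 differences of 0.12, 0.06 and -0.07, and none passed the test.

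Nnt had the smallest of the 4 differences and the smallest errors. It (ENSMUSG00000025453.16) lies on the minus strand at chr13:119335448-119408997, spans 73.55 kb and has 7037 bases of exon. The WT libraries held 1398 and 1482 counts with vehicle, 1162 and 1145 with PM, and 739 and 628 with OI+PM. The Acod1-/- libraries held 2648 and 2676, 2187 and 2206, and 1760 and 1689 counts. The means were 37.54 ± 0.259, 33.1 ± 0.136 and 21.69 ± 0.626 CPM in WT cells and 73.35 ± 1.35, 63.87 ± 0.607 and 52.47 ± 0.624 CPM in Acod1-/- cells (SD, n = 2 each). The highest WT library, at 37.72 CPM with vehicle, was below the lowest Acod1-/- library, at 52.02 CPM with OI+PM. The log2 difference was 0.97 (SE 0.0579), 0.95 (SE 0.0584) and 1.27 (SE 0.0599), or 1.95, 1.93 and 2.42 times higher in Acod1-/- cells. The WT libraries were thus not empty of Nnt transcript, and the counts do not say which exons were read. GENCODE holds another gene model named Nnt whose exons overlap these on the same strand. That model is not among the genes of the count tables, and how reads in the shared exons were handled is not given.

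**Figure D1:**
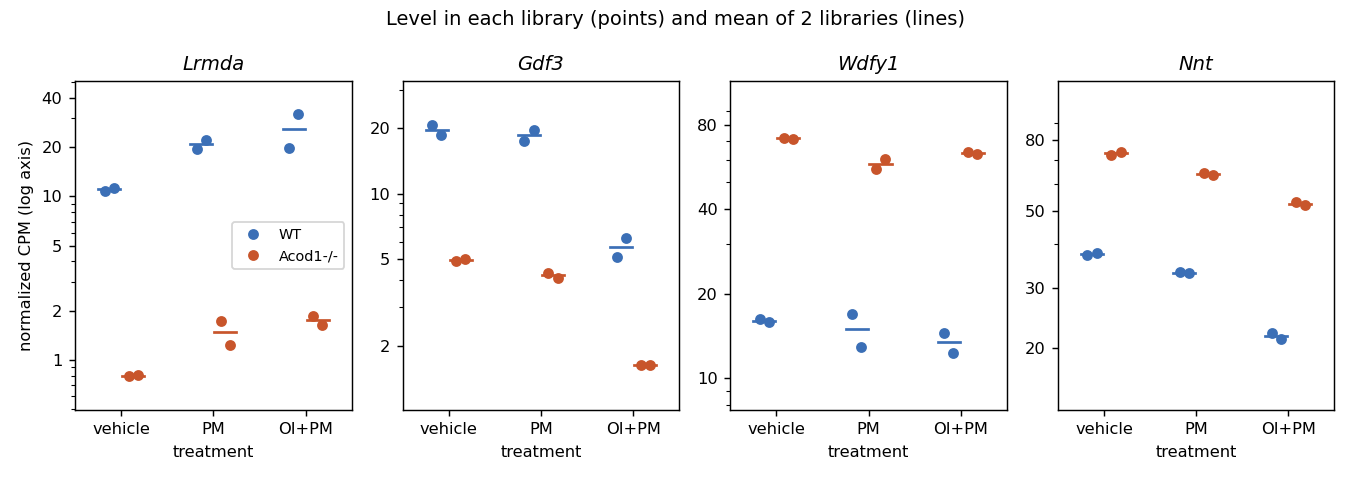
Normalized CPM on a log axis for each library, by treatment, in WT (blue) and Acod1-/- (orange) cells, with lines at the mean of 2 libraries. Points of the 2 genotypes are apart under every treatment, which is what the genes were chosen for, by the widest margin for Lrmda. Gdf3 and Nnt come down with OI+PM in both genotypes.

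The order of the 6 groups differed from gene to gene. For Lrmda it ran from WT with OI+PM, WT with PM and WT with vehicle to Acod1-/- with OI+PM, PM and vehicle, and within each genotype the libraries with OI+PM and with PM overlapped. For Gdf3 it ran from WT with vehicle, PM and OI+PM to Acod1-/- with vehicle, PM and OI+PM, and WT libraries with vehicle and PM overlapped. For Wdfy1 the Acod1-/- groups came first, with vehicle, OI+PM and PM in that order, and the libraries of neighbouring WT groups overlapped. For Nnt the order was vehicle, PM and OI+PM, first in Acod1-/- and then in WT cells, with no overlap between neighbours. Per kb of exon, Wdfy1 and Nnt stood at 11.06 and 10.42 normalized CPM in Acod1-/- cells with vehicle, and at 2.47 and 5.335 in WT cells with vehicle.

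The genotype differences were also set side by side across treatments. From vehicle to PM, the genotype difference on the log2 scale changed by -0.03 (SE 0.464) for Lrmda, -0.15 (SE 0.16) for Gdf3, -0.20 (SE 0.166) for Wdfy1 and -0.02 (SE 0.0817) for Nnt. From PM to OI+PM it changed by -0.06 (SE 0.379), 0.35 (SE 0.19), 0.28 (SE 0.168) and 0.33 (SE 0.083) in the same order of genes. From PM to OI+PM, the mean of Nnt went from 33.1 to 21.69 CPM in WT and from 63.87 to 52.47 CPM in Acod1-/- cells. These changes are made of the values that chose the genes, for a difference under every treatment, and were not tested. The genotype differences that are set side by side here come from separate libraries for each treatment.

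**Figure D2:**
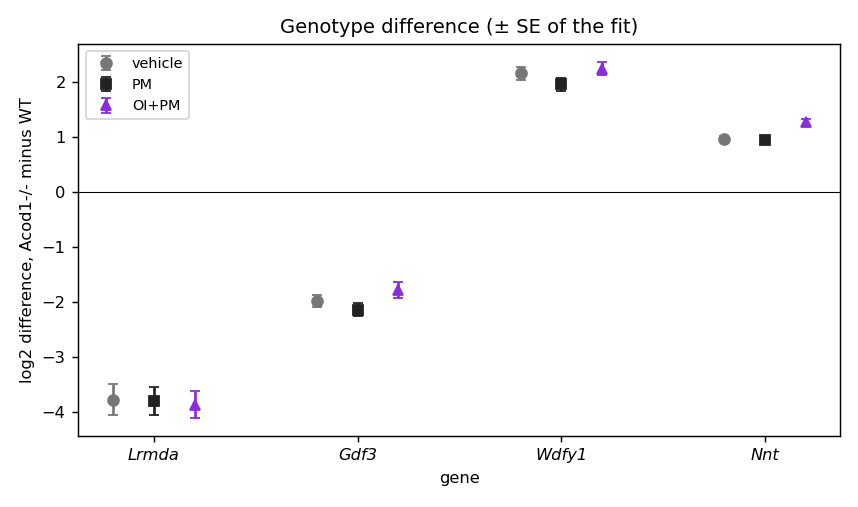
Log2 difference between Acod1-/- and WT for each gene under vehicle, PM and OI+PM, with bars of ± 1 SE of the fit. Lrmda and Gdf3 lie below 0 and Wdfy1 and Nnt above 0 under all 3 treatments, which is what the genes were chosen for, and Nnt goes from 0.95 with PM to 1.27 with OI+PM.

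PM moved these genes little, apart from Lrmda. In WT cells Lrmda rose with PM by 0.92 on the log2 scale (SE 0.195, edgeR adjusted p = 0.00808), and genes that rose made up 12.6% of those tested. In Acod1-/- cells its difference was 0.89, nearly the same size, with a larger error at these low counts (SE 0.368, adjusted p = 0.109, 95% interval 0.07 to 1.71). Leaving out WT vehicle replicate 1, WT vehicle replicate 2 or WT PM replicate 2 ended the WT call, at log2 differences of 0.88, 0.96 and 0.82 and adjusted p of 0.0694, 0.0512 and 0.0553. Leaving out either WT OI+PM library brought the Acod1-/- value past the threshold, at adjusted p of 0.0114 and 0.0116.

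With PM, Nnt fell by 0.18 on the log2 scale in WT (SE 0.0584, edgeR adjusted p = 0.0473) and fell by 0.20 in Acod1-/- cells (SE 0.057, adjusted p = 0.0302). Genes that fell made up 12.2% of those tested in WT and 11.9% in Acod1-/- cells, and those that rose in Acod1-/- cells 12%. Both calls were close to the threshold. Leaving out any single library other than a WT OI+PM library ended the WT call, with adjusted p between 0.0696 and 0.184 over 10 of 12 omissions. Leaving out any library with vehicle, or any Acod1-/- library, ended the Acod1-/- call, with adjusted p between 0.0557 and 0.184 over 8 of 12 omissions. With an offset that removes each library's trend with gene length, Nnt had -0.06 and -0.10 with PM and passed in neither genotype, while Gdf3 had -0.24 and -0.35 and passed in both (adjusted p of 0.0315 and 0.0217). Gdf3 had differences with PM of -0.08 in WT (95% interval -0.31 to 0.14, adjusted p = 0.551) and -0.23 in Acod1-/- cells (adjusted p = 0.2). Wdfy1 had -0.10 in WT (adjusted p = 0.536) and -0.30 in Acod1-/- cells (SE 0.112, adjusted p = 0.0781). The last of these passed without WT PM replicate 1 or 2 or WT OI+PM replicate 1 or 2, at the same log2 difference of -0.30 and adjusted p between 0.0226 and 0.0256.

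OI ahead of PM lowered Gdf3 and Nnt in both genotypes. Gdf3 fell by 1.71 on the log2 scale in WT cells (SE 0.112, edgeR adjusted p = 1.08e-06) and fell by 1.37 in Acod1-/- cells (SE 0.148, adjusted p = 4.95e-05). Nnt fell by 0.61 in WT (SE 0.06, adjusted p = 2.26e-05) and fell by 0.28 in Acod1-/- cells (SE 0.0575, adjusted p = 0.00335). Genes that fell with OI made up 22.6% of those tested in WT and 20.6% in Acod1-/- cells, and genes that rose 21.3% and 13.9%. Each of these 4 calls held under every alternative that was run, and Gdf3 was also past the 2-fold threshold that defines a DEG here. The mean of Gdf3 went from 18.5 CPM with PM to 5.658 CPM with OI+PM in WT and from 4.203 to 1.628 CPM in Acod1-/- cells. For Nnt it went from 33.1 to 21.69 CPM and from 63.87 to 52.47 CPM.

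Lrmda and Wdfy1 did not pass the test with OI. Lrmda had 0.30 in WT (SE 0.189, adjusted p = 0.23) and 0.24 in Acod1-/- cells (SE 0.324, adjusted p = 0.626). The WT value rested on 2 libraries that stood apart, at 19.59 and 31.63 CPM. It was -0.09 without OI+PM replicate 2 and 0.60 without OI+PM replicate 1, and the latter passed (adjusted p = 0.000998). Wdfy1 had -0.15 in WT (adjusted p = 0.342) and 0.13 in Acod1-/- cells (adjusted p = 0.42), and the WT value was -0.34 and passed without PM replicate 2 (adjusted p = 0.0334). Replicates differed from each other in a way that went with gene length, most so in WT cells with PM and OI+PM. The log2 difference of replicate 2 minus replicate 1 had a Spearman's rho against exonic length of -0.28, -0.60 and -0.61 in WT cells with vehicle, PM and OI+PM, over 11208 genes, which are not independent and share their libraries. In Acod1-/- cells it was 0.08, 0.36 and -0.29. Between the WT replicates Lrmda and Gdf3, with the fewest bases of exon of the 4, differed by 0.19 and 0.15 with PM and by 0.69 and 0.29 with OI+PM. Wdfy1 differed by -0.39 and -0.23, and Nnt by -0.01 and -0.06. Between the Acod1-/- replicates Lrmda differed by -0.47 with PM and by -0.19 with OI+PM. With vehicle none of the 4 differed by more than 0.14 in size in either genotype.

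**Figure D3:**
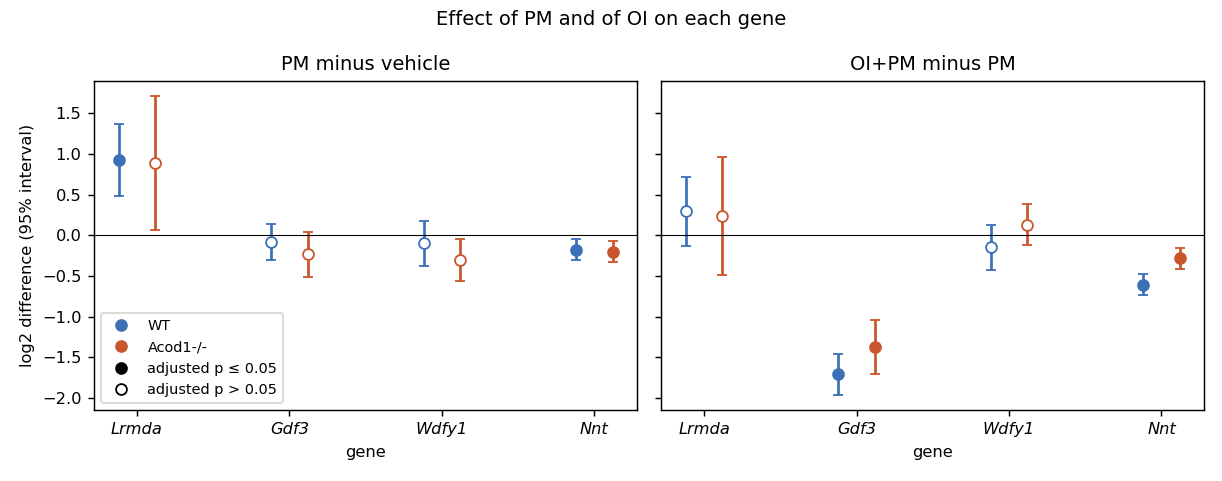
Log2 difference of PM against vehicle (left) and of OI+PM against PM (right) for each gene in WT and Acod1-/- cells, with 95% intervals from the fit. Filled points passed the adjusted p of 0.05, and with OI these are Gdf3 and Nnt in both genotypes.

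Among all tested genes, 24 were DEGs between genotypes in 1 direction under all 3 treatments, which is 0.214%, with 12 higher and 12 lower in Acod1-/- cells. Of the 4 genes, Lrmda, Gdf3 and Wdfy1 are among these 24, and Nnt is not because its difference was under 2-fold with vehicle and with PM. Since the same differences chose the 4 genes, their place here is a description and no test of them. Among the 24 genes, Gm42031, Fam20a, Adcy2 and Ccl28 had means over all libraries of 1.43, 1.11, 0.918 and 0.632 normalized CPM. These means lie below the filter's CPM of 1.5. Such genes were thus tested through only a part of the libraries, and their differences are given as a description. An adjusted p of 0.05 or less in 1 direction under all 3 treatments, with no fold threshold, was met by 102 genes, or 0.908%. For single treatments, genes called higher and lower in Acod1-/- cells were 0.891% and 0.935% with vehicle, 1.1% and 1.3% with PM, and 2.51% and 4.45% with OI+PM. These shares are a background to the choice of the genes and are no evidence about them, and they moved widely with single libraries, the 782 genes called with OI+PM becoming 5452 without WT OI+PM replicate 1 and 95 without Acod1-/- OI+PM replicate 1. Ordered by the smallest of the 3 differences in size, Lrmda was the 1st of all tested genes at 3.78, ahead of Gm42031 at 3.26. Wdfy1 was at place 6 with 1.96, between Mmp9 at 2.03 and 3830403N18Rik at 1.83. Gdf3 was at place 8 with 1.79, next to Camk2b at 1.76. Nnt was at place 40, between Paqr9 at 0.96 and Arhgap24 at 0.93. Paqr9 had a mean of 0.673 normalized CPM over all libraries, which is also below the filter's CPM of 1.5. The number of genes that are DEGs under all treatments was 14 without Acod1-/- OI+PM replicate 1, the omission of a library that lowered it most. Other settings lowered it further, to 7 with CPM above 1.5 in all 12 libraries and to 2 with the compared groups alone.

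**Figure D4:**
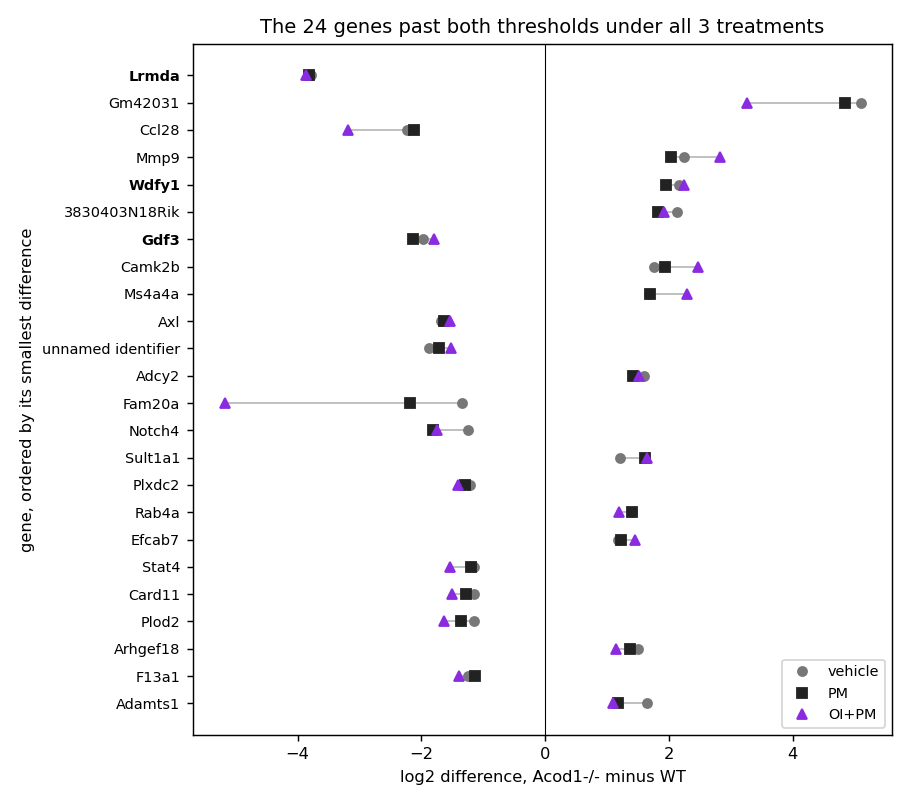
Log2 difference between Acod1-/- and WT under vehicle, PM and OI+PM for the 24 genes that were DEGs in 1 direction under all 3 treatments, ordered by the smallest difference in size. Lrmda, Wdfy1 and Gdf3, in bold, are at the top part of the order, and Nnt is absent because its difference was under 2-fold with vehicle and with PM.

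Of the 24 genes 23 had a chromosome in the annotation, and these were spread over 15 chromosomes with at most 3 on any of them. Chromosome 14, which holds Acod1, held 1 of them, Lrmda, or 4.17%, and 3.3% of the tested genes. The 10 nearest tested genes around each member, 5 on each side, were compared in the same way, and since they were not used in the choice their tests are given. Over all tested genes 8.23% passed by edgeR in at least 1 of the 3 genotype comparisons, 37.7% had an unadjusted p under 0.05 in at least 1, and 13.8% passed by DESeq2 in at least 1. Around Lrmda 0 of 10 passed by edgeR in any of the 3 genotype comparisons, against 2 of 10 at an unadjusted p under 0.05 and 0 by DESeq2, and their log2 differences lay between -0.45 and 0.48. Around Gdf3 the 1 that passed was Slc2a3, which encodes the glucose transporter GLUT3 and was higher in Acod1-/- cells with vehicle at 0.59 and with OI+PM at 0.79 (edgeR adjusted p of 0.0116 and 0.00739). Apobec1 and Dppa3, the tested genes on either side of Gdf3, did not pass.

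Around Wdfy1 the passing genes were Serpine2, a protease inhibitor, at 0.90 with vehicle (adjusted p = 0.00918), and Utp14b at 0.72 with OI+PM (adjusted p = 0.0353). Each passed under a single treatment, whereas the neighbours Ap1s3 and Cul3 passed under none. Around Nnt, Ccl28, which encodes a chemokine of mucosal tissues and lies 0.267 Mb away, held 62 and 58 counts in WT and 12 and 12 in Acod1-/- cells with vehicle, 15 and 21 against 5 and 3 with PM, and 32 and 39 against 3 and 5 with OI+PM. The log2 differences were -2.23, -2.12 and -3.18, opposite in direction to those of Nnt, and Ccl28 is one of the 24 genes. It exceeded the filter's CPM of 1.5 in the 2 WT libraries with vehicle and in no other library, so it was tested through the group in which it is high, and its differences are given as a description. Emb, which encodes the membrane protein embigin, was higher by 0.25 with OI+PM (adjusted p = 0.0356), and Paip1, the tested gene nearest to Nnt, had differences of 0.00, -0.01 and -0.01. Around Acod1 itself Ednrb had differences of 0.58, 0.59 and 0.46 under vehicle, PM and OI+PM, of which the PM value passed (adjusted p of 0.0805, 0.0403 and 0.0505). Rnf219 was higher by 0.54 with OI+PM (adjusted p = 0.049). At an unadjusted p under 0.05 in at least 1 of the 3 comparisons stood 5 of 10 neighbours of Gdf3, 4 of Wdfy1, 6 of Nnt and 8 of Acod1, beside 37.7% of all tested genes. DESeq2 called 2, 2, 2 and 3 of them, beside 13.8% of all, and Ccl28 is counted among those of Nnt. With 10 genes around each, nothing particular to these positions is read from the counts.

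**Figure D5:**
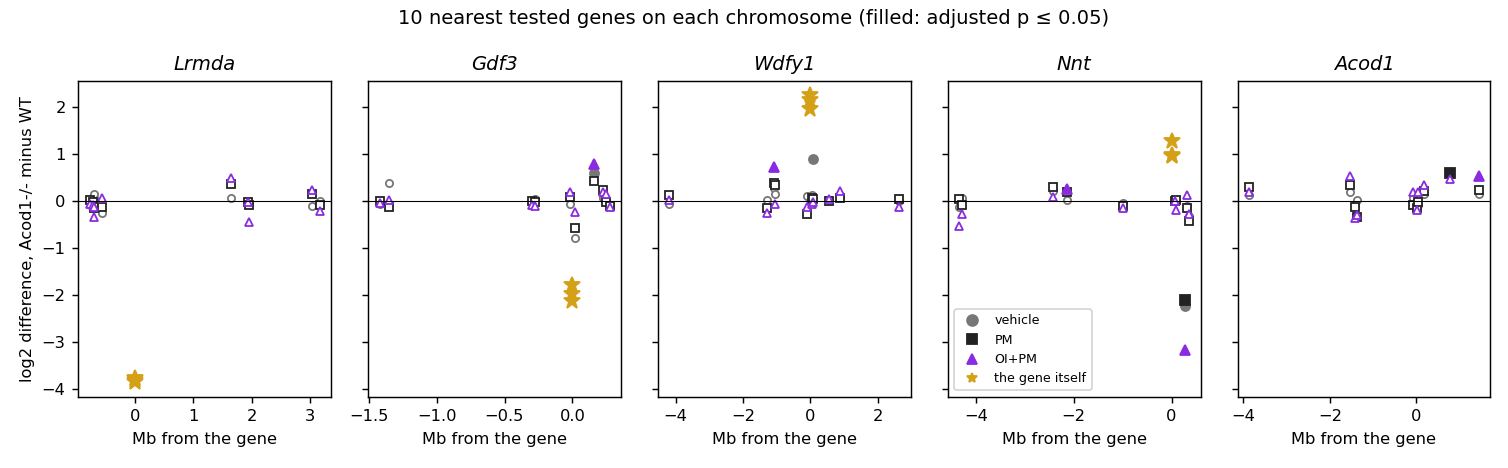
Log2 difference between Acod1-/- and WT for the 10 nearest tested genes around each member and around Acod1, against the distance between gene middles in Mb, with filled points past the adjusted p of 0.05 and stars for the member itself. Ccl28 near Nnt reaches -3.18 with OI+PM, and the other neighbours lie between -0.80 (Dppa3) and 0.90 (Serpine2), both with vehicle.

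The genes whose pattern over the 12 libraries was most like that of each member were found by the root mean square (RMS) of the difference in log2 CPM after centring each gene on its own mean. For Wdfy1 they were Camk2b (0.257), 3830403N18Rik (0.362) and Adcy2 (0.393), against an RMS of 1.07 of Wdfy1 about its own mean. For Nnt they were Efcab7 (0.165), Cttn (0.191) and Tmem8b (0.219), against 0.599. Gdf3 was nearest to Plod2 (0.478), Stat4 (0.57) and Gprc5b (0.574), against 1.24. These 3 had negative differences with OI in both genotypes, which is no further finding because the OI+PM libraries entered the likeness that picked them. Lrmda had no near match, since the closest named genes were Slco4a1 at 1.04 and Fkbp11 at 1.19, against 1.95 of its own. No member was among the 3 genes nearest to another, and each of the genes named here lies on another chromosome than the member it resembles. Adcy2 and Fkbp11 had means over all libraries of 0.918 and 1.25 normalized CPM, below the filter's CPM of 1.5.

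Genes that work beside each member were taken as lists, chosen with earlier results of these data known. Of 18 genes of mitochondrial NADPH supply and peroxide removal, 16 were tested. Between genotypes none passed by edgeR with vehicle or PM, and 2 were lower in Acod1-/- cells with OI+PM, Mthfd2 at -0.59 and Shmt2 at -0.44, both enzymes of mitochondrial folate metabolism, beside 4.45% of all tested genes that were lower. The list's median log2 difference was -0.01, -0.07 and -0.16, against 0.01, 0.00 and -0.03 over all tested genes. Idh2, the mitochondrial NADP+-dependent isocitrate dehydrogenase, had -0.17 or less in size under each treatment, and none of Glud1, Me2, Prdx3 and Txnrd2 passed. At an unadjusted p under 0.05 in at least 1 of the 3 genotype comparisons stood 6 of the 16, and DESeq2 called 4, beside 37.7% and 13.8% of all tested genes. With PM, where Nnt fell, 3 of the 16 rose and 0 fell in WT cells, beside 12.6% and 12.2% of all tested genes, and 4 rose and 1 fell in Acod1-/- cells, beside 12% and 11.9%. Sod2, the mitochondrial superoxide dismutase, rose by 2.16 and 2.36 (adjusted p of 6.69e-06 and 3.11e-06), and Prdx5, a peroxiredoxin, rose by 1.40 and 1.51 (adjusted p of 0.000344 and 0.000192). With OI, 4 of the 16 fell and 2 rose in WT cells, beside 22.6% and 21.3% of all tested genes, and 5 fell and 3 rose in Acod1-/- cells, beside 20.6% and 13.9%. Me2, a mitochondrial malic enzyme, fell by 0.66 in WT cells and fell by 0.69 in Acod1-/- cells (adjusted p of 1.47e-05 and 1.13e-05), a change of the same direction as that of Nnt. Larger falls with OI were those of Sod2, at -1.13 in WT and -1.39 in Acod1-/- cells (edgeR adjusted p of 0.00015 and 4.01e-05). Gpx1 had -1.03 and -0.84 (adjusted p of 0.000219 and 0.000989). Gsr, the glutathione reductase, rose by 0.54 and 0.64 (adjusted p of 0.0001 and 3.11e-05), and Mthfd2 rose by 1.38 and 1.08.

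Of 15 genes of TLR3 and TLR4 signalling through TRIF, 14 were tested, and 2 were higher in Acod1-/- cells with OI+PM, Tank at 0.34 and Ticam2 at 0.41, beside 2.51% of all tested genes that were higher. None passed with vehicle or PM by edgeR, and Ticam1, which encodes TRIF itself, passed in none. Counting all 3 comparisons, 8 of the 14 had an unadjusted p under 0.05 and 5 passed by DESeq2, beside 37.7% and 13.8% of all tested genes. With PM, 5 of the 14 rose and 0 fell in WT cells, beside 12.6% and 12.2% of all tested genes, and 6 rose and 0 fell in Acod1-/- cells, beside 12% and 11.9%. Irf7, an interferon regulatory factor, rose by 2.36 and 2.11 (adjusted p of 4.77e-07 and 6.21e-07), and Ikbke, a kinase that acts on IRF3, rose by 0.93 and 1.03 (adjusted p of 4.92e-06 and 2.17e-06). With OI, 6 of the 14 fell in each genotype, beside 22.6% of all tested genes in WT and 20.6% in Acod1-/- cells. In WT cells 1 rose, Irf3 by 0.34 (adjusted p = 0.0364), and in Acod1-/- cells 0 rose. Tlr3 fell by 1.38 in WT and fell by 1.03 in Acod1-/- cells (adjusted p of 4.83e-06 and 3.82e-05), and the log2 difference of Irf7 was -2.87 and -3.19 (adjusted p of 3.35e-08 and 1.87e-08). Of 13 other WDFY and phosphatidylinositol 3-phosphate-binding endosomal genes, all were tested and 0 passed by edgeR between genotypes, with 2 at an unadjusted p under 0.05 and 0 by DESeq2, beside 8.23%, 37.7% and 13.8% of all tested genes. Among them are the relatives of Wdfy1 by name. Wdfy2 had log2 differences of 0.33, 0.59 and 0.54 under vehicle, PM and OI+PM (SE 0.347, 0.358 and 0.381). Wdfy3 had 0.32, 0.39 and 0.61 (SE 0.237, 0.239 and 0.243), and Wdfy4 had -0.05, -0.02 and 0.04. The values of Wdfy2 and Wdfy3 thus have the sign of those of Wdfy1, and none of them passed. With PM 2 of the 13 fell in WT cells and 1 fell in Acod1-/- cells, with 0 that rose, beside 12.2% and 11.9% of all tested genes that fell. Wdfy3 fell by 0.85 and by 0.78 (adjusted p of 0.0296 and 0.0406). With OI 2 rose and 2 fell in WT cells, and 1 rose and 1 fell in Acod1-/- cells, beside 21.3%, 22.6%, 13.9% and 20.6%.

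Of 28 genes of melanosome and lysosome-related organelle biogenesis, 20 were tested and 0 passed by edgeR between genotypes, with 4 at an unadjusted p under 0.05 and 1 by DESeq2, beside 8.23%, 37.7% and 13.8% of all tested genes in at least 1 of the 3 comparisons. Their log2 differences lay between -0.27 and 0.52. Mitf, the transcription factor of melanocytes that macrophages also express, did not pass. With PM, where Lrmda rose in WT cells, 3 of the 20 rose and 0 fell in WT cells, beside 12.6% and 12.2% of all tested genes. Among those that rose were Gpnmb by 0.43 (adjusted p = 0.000534) and Rab32 by 0.34 (adjusted p = 0.00843). In Acod1-/- cells 4 rose and 0 fell with PM, beside 12% and 11.9% of all tested genes. With OI, where Lrmda did not pass, 9 of the 20 rose and 3 fell in WT cells, beside 21.3% and 22.6%, and 3 rose and 2 fell in Acod1-/- cells, beside 13.9% and 20.6%. The 9 include Gpnmb by 0.43, Ap3s1, a subunit of the AP-3 adaptor, by 0.55, and Bloc1s4, a subunit of BLOC-1, by 0.46 (adjusted p of 0.000238, 0.000563 and 0.0217). Rab32, a small GTPase of melanosome transport, fell by 0.51 in WT and fell by 0.49 in Acod1-/- cells (adjusted p of 0.00033 and 0.000468).

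Of 42 other TGF-beta family ligands, receptors and SMADs, 20 were tested. None passed with vehicle, Gdf15 was lower in Acod1-/- cells with PM at -0.74 (adjusted p = 0.0269), and with OI+PM Gdf15 at -1.05 (adjusted p = 0.00307) and Acvrl1 at -0.50 (adjusted p = 0.0144) were lower, beside 1.3% of all tested genes with PM and 4.45% with OI+PM. Gdf15 is a stress-induced ligand of the family and Acvrl1 encodes a receptor for BMP9. At an unadjusted p under 0.05 in at least 1 of the 3 genotype comparisons stood 8 of the 20, and DESeq2 called 2, beside 37.7% and 13.8% of all tested genes. With PM, 7 of the 20 fell and 2 rose in WT cells, beside 12.2% and 12.6% of all tested genes, and 4 fell and 1 rose in Acod1-/- cells, beside 11.9% and 12%. Tgfbr1, a type I receptor of TGF-beta, fell by 0.80 and by 0.49 (adjusted p of 0.00279 and 0.0286), and the inhibitory Smad7 fell by 0.55 and by 0.95 (adjusted p of 0.00439 and 0.000106). Smad6, also inhibitory, is counted among those that rose, at 1.04 and 1.16, with means of 2.28 and 2.44 CPM with PM. Its level with vehicle was under the filter's CPM of 1.5. It was thus tested through groups in which it is high, and its differences are given as a description. With OI, 6 of the 20 fell and 4 rose in WT cells, beside 22.6% and 21.3% of all tested genes, and 4 fell and 3 rose in Acod1-/- cells, beside 20.6% and 13.9%. The ligand Bmp2 fell with OI, at log2 differences of -3.07 in WT and -3.29 in Acod1-/- cells (adjusted p of 3.49e-07 and 2.5e-07), while Gdf15 rose by 1.79 and 1.48 (adjusted p of 4.23e-06 and 2.13e-05). Smad3, which carries signals of TGF-beta and activins, fell too, at -1.42 and -1.52. In the genotype comparisons Bmp2 had 0.13, -0.01 and -0.22 and did not pass.

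Besides Nnt, 3 genes with known sequence differences between C57BL/6J and C57BL/6N were looked up. Crb1 and Nlrp12 had at most 1 count in any library. Cyfip2, which differs between the substrains in its protein sequence, was tested and had log2 differences of -0.12, -0.16 and -0.11, and it did not pass in any comparison, at an unadjusted p under 0.05 or by DESeq2. Of 23 alternatives 22 left this the same, and Cyfip2 passed in at least 1 genotype comparison in the other. Counts per gene do not show alleles, so the substrain of the mice was not read from these data.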

How the data were processed

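RNA of 12 BMDM libraries was read by the authors in single-end runs of 50 bp. Alignment to GRCm38 was by STAR (2.5.3a in the submitters' processing notes, which also list FastQC 0.11.5 and Picard 2.9.0), and featureCounts tallied reads by gene. What was deposited is raw counts, neither normalized nor filtered. The annotation release and the use of strand are not given in the sources used here. Symbols, exonic lengths and positions were taken from GENCODE on the same build, and 48349 of 48795 identifiers had a symbol.

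Tests were run on genes that exceeded a CPM of 1.5 in 2 or more of the 12 libraries. Counts of all libraries entered a single edgeR 4.0.16 quasi-likelihood fit (R 4.3.3, TMM, a mean for each of 6 groups, no replicate block), with Benjamini-Hochberg adjustment over 11228 genes. A gene passed at an adjusted p up to 0.05, and a DEG in addition changed at least 2-fold. An SE is the log2 difference in size divided by the square root of F. Intervals are 95% and use 9.77 degrees of freedom. RMS likeness used log2 CPM with a prior count of 2. The fit was tested on simulated data.

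The 4 genes and all lists were chosen with earlier results of these data known. Named genes are the members, the 3 genes most like each, list and neighbouring genes that passed, and those next to a member in an order. Others were named after their values were seen. Alternatives were DESeq2 1.42.0, total count and RLE scaling, a minimum of 10 counts in total or of CPM above 1.5 in all 12 libraries, the compared groups alone, a replicate block, an offset for gene length (lowess, span 0.3), the offset with the block, and leaving out each library. A block with exchanged numbers was chosen after seeing the data.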

Additional observations from a re-analysis of the deposited data

How the results depend on the processing

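None of 249 recomputed genotype differences of the 4 genes and none of 332 treatment effects turned a called direction, and 237 and 288 stayed on their side of the threshold or within the spread between replicates. Lrmda has no value with CPM above 1.5 in all 12 libraries, which removes it. For PM in WT cells the value of Nnt was -0.18 and did not pass with a filter of 10 counts, with the compared groups alone or with the replicate block (adjusted p of 0.0973, 0.129 and 0.0551), and it was -0.06 with the gene length offset, with or without the block. In Acod1-/- cells Nnt was -0.19 with the filter of 10 counts and -0.10 with the length offset, with or without the block, and did not pass. With the length offset, with or without the block, Gdf3 passed with PM at -0.24 in WT and -0.35 in Acod1-/- cells. In Acod1-/- cells Lrmda passed with PM at 0.89 by DESeq2 and 0.90 with the compared groups alone, and Wdfy1 at -0.30 with the compared groups alone. The genotype difference of Nnt was 0.96 with PM and 1.34 with OI+PM under total count scaling, and 0.92 and 1.20 with the length offset, with or without the block. The cause of these shifts was not tested.

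Leaving out each library gave ranges with PM of 0.82 to 1.01 for Lrmda and -0.19 to -0.17 for Nnt in WT, and of 0.63 to 1.11 for Lrmda, -0.36 to -0.25 for Wdfy1 and -0.22 to -0.18 for Nnt in Acod1-/- cells. With OI in WT it gave -0.09 to 0.60 for Lrmda and -0.34 to 0.05 for Wdfy1. The genotype differences ranged from -2.05 to -1.91 for Gdf3 with vehicle, from -4.07 to -3.58 for Lrmda and 1.78 to 2.17 for Wdfy1 with PM, and from -4.17 to -3.48 for Lrmda, -1.93 to -1.64 for Gdf3 and 2.14 to 2.37 for Wdfy1 with OI+PM. The 24 genes that were DEGs under all treatments became 102 without the fold threshold and 7 with CPM above 1.5 in all 12 libraries. Their number was 2 with the compared groups alone, the cause of which was not tested, and 14 to 27 with a library left out. The number of neighbours or list genes that passed was 5 with the compared groups alone and 3 with the length offset around Gdf3 against 1, 4 against 2 around Wdfy1 with the offset, and 7 against 2 for TGF-beta genes with the groups alone. With the length offset and the block it was 6 against 2 for TRIF genes, 5 against 2 for mitochondrial NADPH genes, 2 against 0 for melanosome genes and 1 against 0 for WDFY genes. With a library left out it ranged from 0 to 8 for TRIF, 0 to 12 for NADPH, 0 to 10 for melanosome, 0 to 6 for WDFY and 1 to 11 for TGF-beta genes, and from 0 to 4, 1 to 5, 0 to 6, 1 to 5 and 0 to 8 around Lrmda, Gdf3, Wdfy1, Nnt and Acod1. The number of all tested genes that differed between genotypes, 205 with vehicle, 269 with PM and 782 with OI+PM, was 2316, 174 and 2 with the compared groups alone, 375, 590 and 1724 with the length offset, and 434 with PM and 1321 with OI+PM by DESeq2. With a library left out these numbers ranged from 52 to 394, 74 to 698 and 95 to 5452.

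The labels do not say whether same-numbered libraries share more than a number. The correlation of their deviations from group means across 11228 genes was 0.23, 0.24 and 0.73 among the 3 pairs of WT groups, and -0.06, -0.04 and -0.09 among those of Acod1-/- groups. Between genotypes, WT vehicle, PM and OI+PM had -0.05, -0.06 and -0.04 with Acod1-/- vehicle. They had -0.13, -0.41 and -0.41 with Acod1-/- PM, and 0.05, 0.23 and 0.25 with Acod1-/- OI+PM. The block ended no call of a member other than that of Nnt with PM in WT. With the numbers of the Acod1-/- PM libraries exchanged, an alternative chosen after seeing the data, the number of genes that passed with PM in Acod1-/- cells was 3580, against 2863 with the numbers as labelled, and the number that differed between genotypes with OI+PM was 1872, against 880.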
